A study of Mus musculus with 14 samples.

Results

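Leukocyte lineage marker genes are transcripts used to recognise macrophages, dendritic cells, neutrophils and lymphocytes in a tissue. The set holds 41 genes, listed by symbol with earlier results of these data known, of the 23286 genes in the count tables. All 41 were found. They were grouped by role into 7 pan-leukocyte and adaptor genes, 14 monocyte and macrophage genes, 5 genes of antigen presentation and dendritic cells, 9 neutrophil genes and 6 lymphocyte genes. They were read in bulk RNA-seq of whole kidneys from 9-week-old mice. The mice had undergone ischemia-reperfusion (IR), a temporary stop of the kidney's blood flow, or sham surgery 5 h earlier. Mice of 2 genotypes, called Control and VE-PTPiKO in the labels, each had 3 sham and 3 IR libraries, which makes 4 groups. VE-PTPiKO targets VE-PTP, an endothelial phosphatase of the Tie2 receptor that is encoded by Ptprb. What drives the deletion, the strain of these mice and what the Control animals carry are not given in the sources used here. The study's title concerns angiopoietin-Tie2 signalling in IR injury, and the comparisons below ask how leukocyte transcripts stood after IR and whether that differed with genotype.

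The healthy kidney holds resident macrophages and dendritic cells, which sample the interstitium around the tubules and carry MHC class II molecules. After ischemia, neutrophils and monocytes arrive from the blood, and macrophages take up debris in their lysosomes. Lymphocyte receptors such as CD3, CD8 and CD79 mark T and B cells, which are few in a kidney at rest. In bulk tissue, fewer cells of a type and less RNA per cell cannot be told apart.

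The promoters of the 3 genes that passed the test after IR are shown first. Their part in the values below was not tested. Of the 41 genes, 33 had a promoter window from RefSeq (build GRCm38.p6), reaching from 250 bases before to 50 bases after the start. The sequences are the bases before the start, read 5′ to 3′ on the gene's strand. For Lyz2 the last 49 bases are left out because the GENCODE annotation places them inside the gene. Capitals mark 2 motifs searched on both strands, GAGGAA, an ETS-type core of the kind bound by PU.1, and TGANTCA, the AP-1 site, which is its own reverse complement. The Cd68 window lies at chr11:69666171-69666420, that of Lyz2 at chr10:117282322-117282522 and that of Clec4e at chr6:123289872-123290121, all on the minus strand.
Cd68: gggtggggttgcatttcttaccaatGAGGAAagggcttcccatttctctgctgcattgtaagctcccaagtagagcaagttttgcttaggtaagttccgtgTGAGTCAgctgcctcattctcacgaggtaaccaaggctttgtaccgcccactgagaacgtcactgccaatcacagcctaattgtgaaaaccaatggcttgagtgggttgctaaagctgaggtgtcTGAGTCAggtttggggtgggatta
Lyz2: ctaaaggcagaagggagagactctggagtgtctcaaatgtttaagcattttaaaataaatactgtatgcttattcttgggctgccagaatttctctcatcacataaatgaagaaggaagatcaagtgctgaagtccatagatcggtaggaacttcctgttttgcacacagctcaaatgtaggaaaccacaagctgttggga
Clec4e: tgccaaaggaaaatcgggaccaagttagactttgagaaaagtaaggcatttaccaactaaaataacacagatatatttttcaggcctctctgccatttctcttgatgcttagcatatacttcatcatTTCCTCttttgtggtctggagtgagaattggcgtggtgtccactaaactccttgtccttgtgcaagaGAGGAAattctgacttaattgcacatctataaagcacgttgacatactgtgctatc

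The Cd68 sequence held TGANTCA at 149 and 24 bases before the start and GAGGAA at 225 bases before it. The Clec4e sequence held GAGGAA at 123 and 56 bases before its start. Neither motif was in the Lyz2 sequence. Over whole windows of the same length, GAGGAA was in 54.1% of the 37 windows of these leukocyte genes (18 of 33 genes) and in 28.3% of all 32851 windows. TGANTCA was in 5.4% of the leukocyte windows, those of Cd68 and Itgax, and in 7.8% of all windows. A window with at least 2 TGANTCA matches, as Cd68 has, was 1 of 151 among the 32851 (0.46%). A match is a description of letters and not a measured binding site.

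Libraries held 15427887 to 21296392 reads assigned to genes. Kidney tubule and podocyte markers summed to 16024 to 23658 CPM (counts scaled to the library total of assigned reads) and 8 endothelial markers to 652 to 848, so the labelled tissue was found in every library. Malat1, a nuclear RNA, took 1.02% of reads in Control sham 2, 1.152% in VE-PTPiKO sham 2 and 1.962% in VE-PTPiKO IR 3, against 0.327% to 0.564% in the other 9 libraries. Ptprb reads over the whole gene overlapped between genotypes after IR, at 112, 122 and 158 CPM in Control IR and 75.0, 94.8 and 126 in VE-PTPiKO IR. In sham they were 168, 246 and 177 CPM in Control and 117, 162 and 162 in VE-PTPiKO, where the groups did not overlap. Neither difference passed the test (limma adjusted p = 1 in both), and a sum over the whole gene cannot show a deleted exon. Counts of libraries do not say that libraries came from separate animals, so the p-values reflect spread between samples that may be technical.

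Per length of transcript, the MHC class II genes stood highest of the 41. Cd74, the invariant chain that guides class II molecules to the endosome, had a mean of 89.6 RPKM (CPM per kilobase of exon) over the 12 libraries. The class II chains H2-Eb1, H2-Ab1 and H2-Aa followed at 33.8, 25.1 and 18.3 RPKM. The lysosomal protease gene Ctss had 12.9 RPKM, the receptor gene Csf1r 12 and the lysozyme gene Lyz2 9.97. Cd68, the lysosomal membrane protein used as a macrophage marker, had 4.92 RPKM. The lymphocyte genes lay between 0.0277 RPKM for Cd3e and 0.364 for Cd79b. In CPM, 5 of the 41 genes had a mean of 50 or more, 10 of 5 to 50, 13 of 1 to 5, and 13 of under 1.

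**Figure D1:**
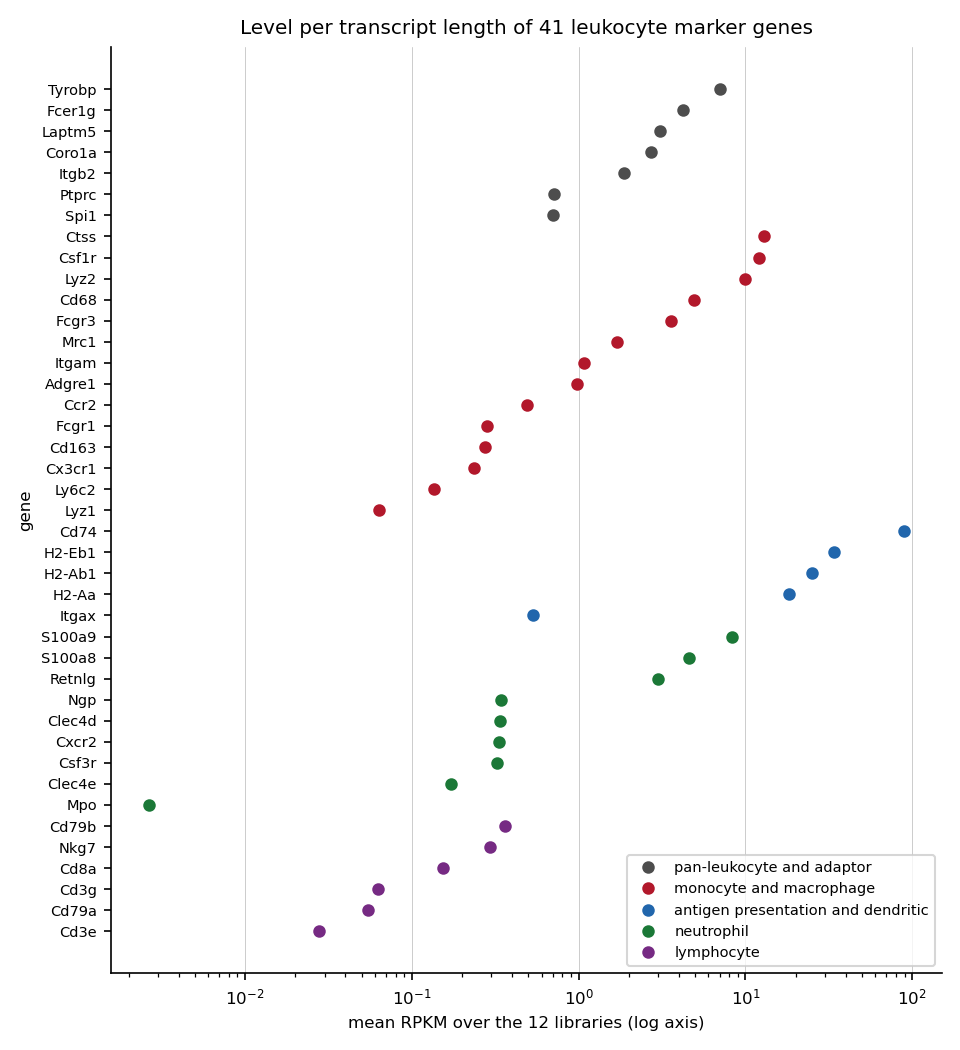
Mean RPKM over the 12 libraries (log axis) of the 41 genes, coloured by role and sorted within each role. Cd74 stands at 89.6 RPKM at the right, and Mpo at 0.00266 at the left.

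After IR, most of the genes stood higher than in sham, by small amounts, and few passed the test. Cd68, Lyz2 and Clec4e rose in Control kidneys, and Cd68 rose in VE-PTPiKO kidneys. No member fell in either genotype. The test was limma on log2(value + 1) within each genotype's 6 libraries, with p-values adjusted by Benjamini-Hochberg over every gene whose mean value reached 1, as 40 of the 41 did. In Control, 3 of 40 (7.5%) passed upward, against 7.48% of all 16257 genes tested, and none passed downward, against 4.02%. In VE-PTPiKO, 1 of 40 (2.5%) passed upward, against 1.92% of 16401 genes, and none downward, against 0.793%. By limma the share of calls was therefore near that of all genes in both genotypes. By the authors' tables and by DESeq2, given below, it was above that of all genes.

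Far more members stood higher after IR than were called. In Control, 38 of the 40 genes had a log2 fold change above 0, with a median of 0.44, against 48.4% of all genes and a median of -0.01. In VE-PTPiKO, 32 of 40 lay above 0, with a median of 0.41, against 48.9% and -0.01. All 3 IR libraries lay above all 3 sham libraries in CPM for 18 of the 40 genes (45%) in Control, where 17.4% of all genes tested did so. For Cd79a, 1 of these 18, the nearest sham and IR libraries both held 1 read and differed in library total alone. The same held for 14 of 40 (35%) in VE-PTPiKO, against 12.7% of all genes. On the deposited scale, which divides by a size factor and not by the library total, these counts were 18 of 40 (45%, against 16%) and 10 of 40 (25%, against 10.6%), and the 4 genes lost in VE-PTPiKO were Spi1, Tyrobp, Lyz2 and Cd74. For 0 of the 40 genes, in either genotype, did all IR libraries lie below all sham libraries. The highest of the 12 libraries was a Control IR library for 21 of the 41 genes, a VE-PTPiKO IR library for 17, a VE-PTPiKO sham library for Nkg7 and Cd79b, and a Control sham library for Itgax.

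**Figure D2:**
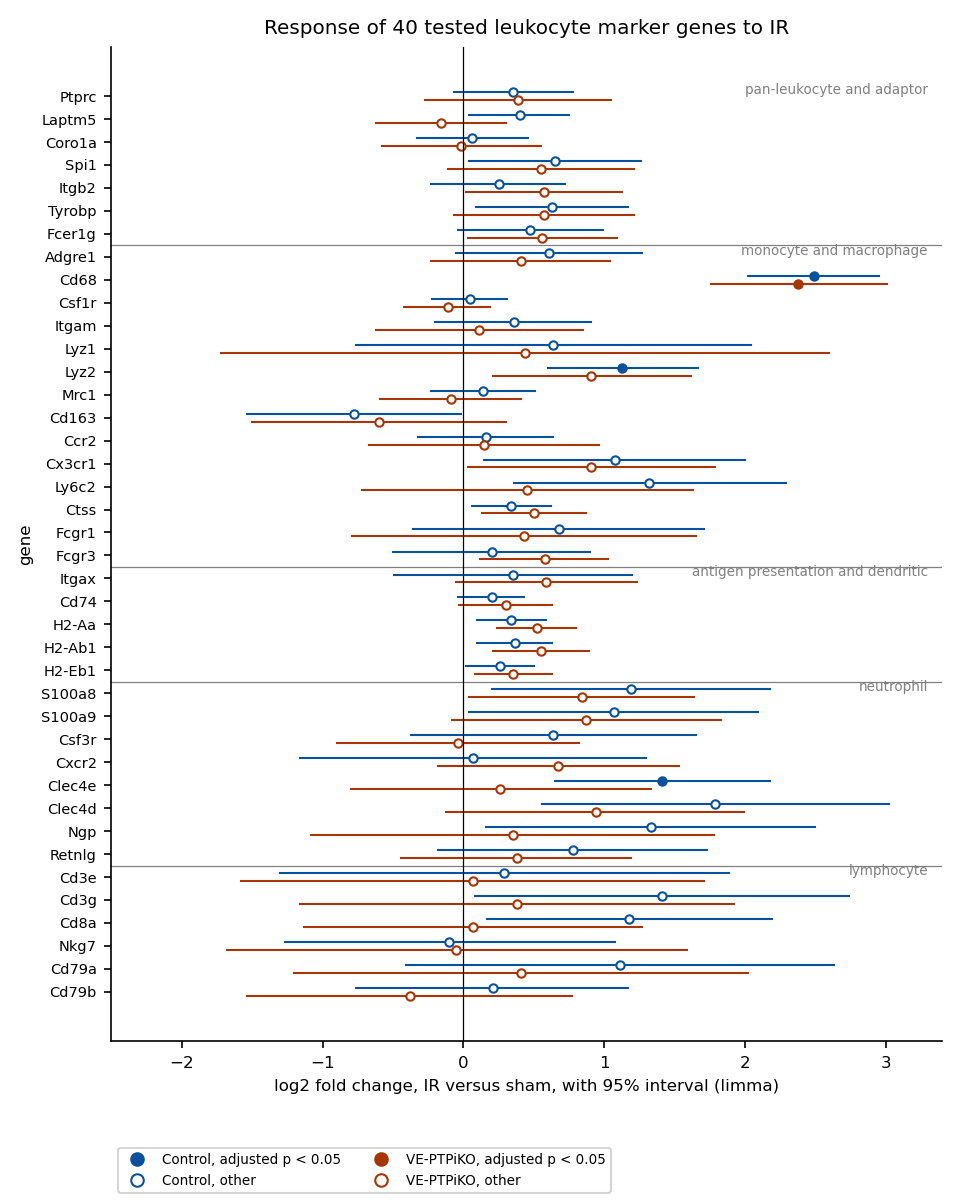
Log2 fold change of IR against sham (points) with its 95% interval (lines) for the 40 tested genes, in Control (blue) and VE-PTPiKO (brown); filled points had a limma adjusted p under 0.05. Cd68 stands apart at 2.49 and 2.38, and most other points lie between 0 and 1.5; intervals are widest for genes with a few reads, whose values also rest on the pseudocount of 1.

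More members were called by the authors' deposited tables and by DESeq2. The authors' deposited table marked 8 of the 31 members with an adjusted p as higher in Control (25.8%, against 12.5% of all genes): Cd68, Lyz2, Clec4e, Clec4d, S100a8, H2-Aa, H2-Ab1 and Tyrobp. In the authors' deposited table for VE-PTPiKO, 6 of 31 were marked higher (19.4%, against 6.42%): Cd68, Lyz2, H2-Aa, H2-Ab1, H2-Eb1 and Ctss. DESeq2 on the recovered reads called 5 of 35 members in Control (14.3%, against 9.5%), with S100a8 and S100a9 added to the limma calls. In VE-PTPiKO it called 3 of 34 (8.82%, against 4.39%), adding H2-Aa and H2-Ab1.

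Cd68 (mm10, chromosome 11, 69664213 to 69666153, minus strand) had the largest change of the set in both genotypes. In Control it stood at 1.85, 1.53 and 2.14 CPM in the sham libraries and at 10.2, 11.4 and 10.5 CPM after IR. With VE-PTPiKO the sham libraries stood at 1.27, 2.25 and 2.20 CPM and the IR libraries at 9.07, 9.85 and 12.0. All 6 IR libraries were thus above 9 CPM and all 6 sham libraries below 2.3. The rise was 5.61-fold in Control (log2 2.49 ± 0.21 SE, limma adjusted p = 5.12e-05, n = 3 per group) and 5.22-fold in VE-PTPiKO (2.38 ± 0.28, adjusted p = 0.00308). Leaving out each library in turn kept the call, with folds of 5.1 to 6.12 in Control and 4.31 to 5.81 in VE-PTPiKO. Eif4a1, which encodes a translation initiation factor, ends 782 bases upstream of Cd68 on the same strand, and it was also higher after IR. Its CPM was 44.9, 48.6 and 45.7 in Control sham against 62.2, 64.5 and 57.6 in Control IR, and 47.5, 46.0 and 40.1 against 66.5, 61.7 and 68.5 in VE-PTPiKO. Its fold change was 1.3 in Control (adjusted p = 0.0481, up to 0.232 without 1 library) and 1.42 in VE-PTPiKO (adjusted p = 0.0736), smaller than that of Cd68, and its part in the Cd68 reads was not tested.

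Lyz2, the lysozyme M gene of macrophages and neutrophils (chromosome 10, 117277331 to 117282321), was the second of the macrophage genes to pass in Control. It had 10.4, 5.51 and 8.26 CPM in sham Control kidneys, against 13.9, 21.7 and 17.9 in injured ones. Sham VE-PTPiKO kidneys had 13.3, 7.66 and 6.27 CPM and injured ones 24.4, 14.4 and 13.7. In CPM the groups did not overlap in either genotype, but on the deposited scale, which the test used, the VE-PTPiKO groups overlapped. The rise in Control was 2.19-fold (log2 1.13 ± 0.24, limma adjusted p = 0.0122, n = 3 per group), a call that ended when Control IR replicate 2 was left out (adjusted p = 0.0747). In VE-PTPiKO the fold change was 1.88 (0.91 ± 0.31, adjusted p = 0.199). Lyz1, its close paralog, had 0 to 8 reads in any library, and reads that fit both copies cannot be placed by these counts.

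Apart from Cd68 and Lyz2, no monocyte and macrophage gene of the set passed the test. Csf1r, the receptor for the macrophage growth factor CSF1, had 62.1, 77.0 and 69.1 CPM in the Control sham libraries and 77.5, 64.4 and 77.7 after IR. Values in VE-PTPiKO ran 67.0, 68.6 and 69.0 CPM for sham and 61.1, 59.3 and 77.1 for IR. The groups overlapped, and the interval of the log2 fold change was -0.22 to 0.31 in Control and -0.42 to 0.19 in VE-PTPiKO. Of the exon length of Csf1r, 15.1% overlaps Hmgxb3 on the other strand, which had 51.9 to 69.2 CPM, and strand use in the counting is not given, so its level is uncertain.

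Adgre1, which encodes the F4/80 antigen, had 2.84, 2.66 and 1.62 CPM in sham Control kidneys, against 2.57, 3.71 and 4.96 in injured ones. For VE-PTPiKO the values were 3.90, 2.36 and 2.14 CPM in sham and 3.20, 3.57 and 4.54 after IR. Its groups overlapped in both genotypes (log2 0.61 ± 0.30 and 0.41 ± 0.28, limma adjusted p = 0.246 and 0.565). Ctss, the cathepsin that trims the invariant chain, had 13.9, 15.7 and 15.3 CPM in the Control sham libraries and 18.1, 19.6 and 20.4 after IR. The VE-PTPiKO libraries gave 14.2, 15.1 and 14.0 CPM in sham and 21.5, 17.5 and 25.2 after IR. Its groups did not overlap in either genotype, at a log2 fold change of 0.34 ± 0.13 (adjusted p = 0.124) and 0.50 ± 0.16 (0.183).

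Of the other monocyte and macrophage genes, Cx3cr1, the fractalkine receptor of resident and patrolling cells, was 0.35 to 0.99 CPM in sham Control kidneys, against 1.17 to 2.15 in injured ones. In VE-PTPiKO it was 0.37 to 0.77 CPM in sham and 1.04 to 1.48 after IR, again without overlap (log2 1.08 and 0.91, limma adjusted p = 0.138 and 0.311). Ly6c2, a marker of inflammatory monocytes, was 0.17 to 0.43 CPM in the Control sham libraries and 0.60 to 0.88 after IR, and its VE-PTPiKO groups overlapped. Its neighbour and near copy Ly6c1, an endothelial transcript, stood at 34.8 to 60.1 CPM, and how the counting split reads between the copies is not known. Cd163, the haemoglobin scavenger receptor, was the 1 macrophage gene with a value below 0 in Control (log2 -0.78 ± 0.34, adjusted p = 0.193), and it was also below 0 in VE-PTPiKO (-0.60 ± 0.40, 0.541). Ccr2, the chemokine receptor of monocytes, ranged over 1.72 to 4.66 CPM and Mrc1, the mannose receptor, over 7.77 to 16.8 CPM, with overlap between sham and IR in both genotypes. Itgam, the CD11b integrin chain, ranged over 3.43 to 8.17 CPM, but 68.7% of its exon length is shared with the same-strand gene Gm49368. The Fc receptor genes Fcgr1 and Fcgr3 ranged over 0.23 to 1.58 and 3.54 to 8.77 CPM. By count, 2 of 14 monocyte and macrophage genes rose in Control and 1 in VE-PTPiKO, against 7.48% and 1.92% of all genes. Above 0 were 13 and 11 of the 14, against 48.4% and 48.9% of all genes.

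**Figure D3:**
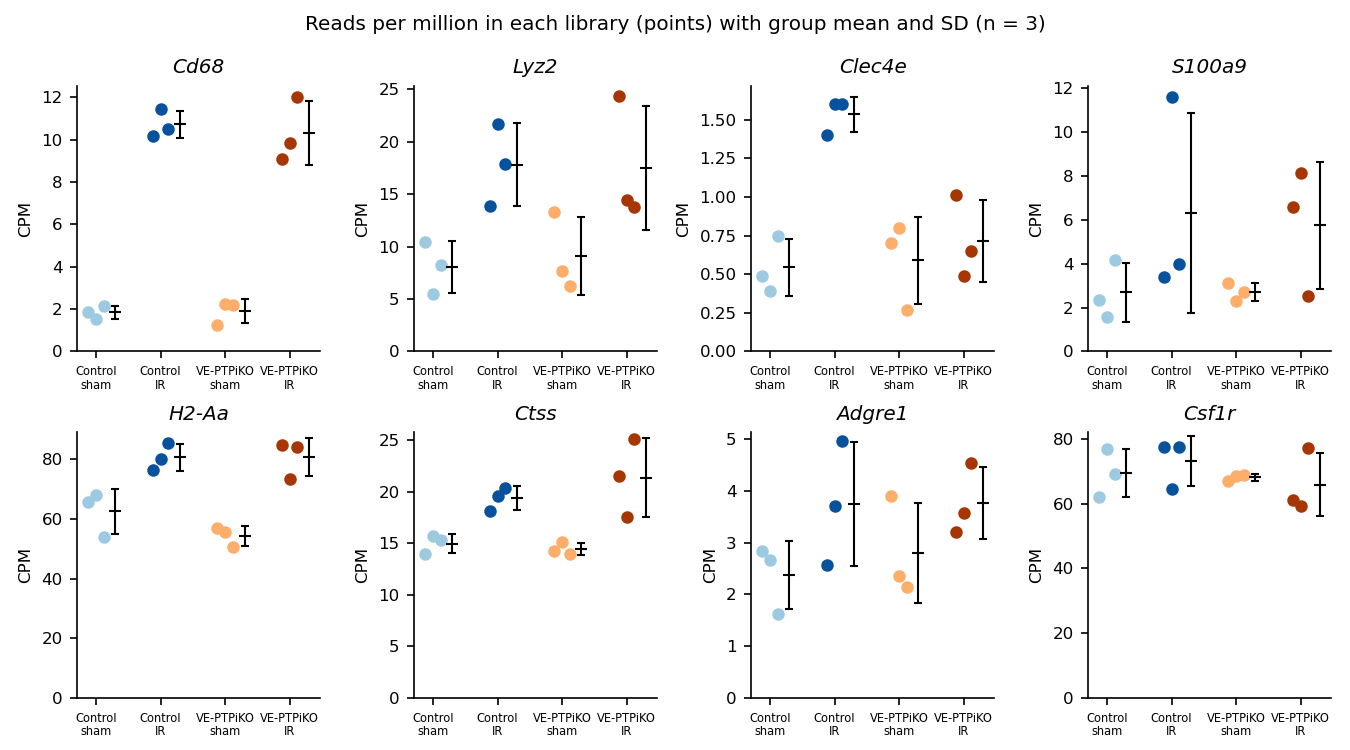
CPM of 8 genes in each library (points) with the group mean and SD to their right (n = 3), by group; every axis starts at 0. Cd68 separates IR from sham in both genotypes, Clec4e stands higher in Control IR than in the other 3 groups, and Csf1r stays between 59.3 and 77.7 CPM.

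The 5 antigen presentation genes of the set stood a little higher after IR in both genotypes, and none passed the test. H2-Aa, the class II alpha chain, had 65.7, 68.1 and 53.9 CPM in sham Control kidneys, against 76.4, 80.2 and 85.5 in injured ones. With VE-PTPiKO the sham libraries stood at 56.9, 55.5 and 50.6 CPM and the IR libraries at 84.7, 73.3 and 84.2. The IR libraries lay above the sham libraries in both genotypes, by 1.27-fold in Control (log2 0.34 ± 0.11, limma adjusted p = 0.0745, n = 3 per group) and 1.43-fold in VE-PTPiKO (0.52 ± 0.12, adjusted p = 0.069). H2-Eb1, a class II beta chain, had 66.5, 63.8 and 54.2 CPM in the Control sham libraries and 73.0, 77.8 and 74.0 after IR. Sham VE-PTPiKO kidneys had 53.6, 56.1 and 52.9 CPM and injured ones 72.0, 67.0 and 76.9. Its groups did not overlap in either genotype, and its log2 fold change was 0.26 (adjusted p = 0.171) and 0.35 (0.195).

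Cd74 had 140, 151 and 122 CPM in sham Control kidneys, against 145, 168 and 170 in injured ones, where the groups overlapped. Values in VE-PTPiKO ran 125, 136 and 136 CPM for sham and 189, 141 and 180 for IR, without overlap in CPM but with overlap on the deposited scale (log2 0.20 and 0.30, limma adjusted p = 0.302 and 0.376). H2-Ab1, the second class II beta chain of the set, ranged over 45.0 to 65.3 CPM in the 6 sham libraries and 69.1 to 89.3 in the 6 IR libraries (log2 0.37 and 0.55, adjusted p = 0.0762 and 0.11). Itgax, the CD11c chain of dendritic cells, was highest of all in Control sham 2 at 4.92 CPM, a library that also had the highest sum of fat and muscle markers (30.5 CPM against 4.63 to 15 elsewhere). The part of those markers in the Itgax value was not tested. None of the 5 genes passed in either genotype by limma, where 7.48% and 1.92% of all genes passed upward. All 5 were above 0 in both, with medians of 0.34 and 0.52, against 48.4% and 48.9% of all genes above 0. Without VE-PTPiKO IR replicate 3, the library highest in Malat1, the calls in VE-PTPiKO were 5 of 40, with H2-Aa, H2-Ab1, S100a8 and S100a9 added to Cd68. That is 12.5% of members, against 11.8% of all genes called in either direction without that library.

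The pan-leukocyte genes gave no call in either genotype, where 7.48% and 1.92% of all genes passed upward. Ptprc, which encodes CD45, the surface phosphatase of all white cells, had 9.01, 12.3 and 11.5 CPM in the Control sham libraries and 10.7, 16.1 and 16.5 after IR. For VE-PTPiKO the values were 8.26, 15.6 and 10.4 CPM in sham and 13.3, 11.3 and 22.3 after IR. The groups overlapped in both genotypes, and the log2 fold change was 0.35 ± 0.19 (limma adjusted p = 0.295) and 0.39 ± 0.29 (0.6). Laptm5, a lysosomal protein of blood cells, had 8.95, 11.8 and 8.78 CPM in sham Control kidneys, against 12.6, 13.9 and 12.8 in injured ones. The VE-PTPiKO libraries gave 11.3, 13.2 and 12.2 CPM in sham and 9.49, 10.0 and 15.2 after IR. Its Control groups did not overlap and its VE-PTPiKO groups did, with a log2 fold change of 0.40 ± 0.16 in Control (adjusted p = 0.154) and -0.16 ± 0.20 in VE-PTPiKO (0.783).

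Coro1a, an actin-binding protein of leukocytes, had 6.66, 8.31 and 7.28 CPM in the Control sham libraries and 8.72, 7.97 and 7.05 after IR. With VE-PTPiKO the sham libraries stood at 6.25, 7.87 and 7.58 CPM and the IR libraries at 9.96, 5.48 and 7.32, and sham and IR overlapped in both genotypes. Spi1, which encodes the factor PU.1, and the adaptor genes Tyrobp and Fcer1g, which pass on signals of activating receptors, were higher in CPM in all 3 IR libraries than in all 3 sham libraries in both genotypes. On the deposited scale Spi1 and Tyrobp overlapped in VE-PTPiKO. The log2 fold changes of Spi1, Tyrobp and Fcer1g were 0.65, 0.63 and 0.47 in Control and 0.55, 0.57 and 0.56 in VE-PTPiKO, with limma adjusted p from 0.136 to 0.426. Fcer1g ranged over 2.57 to 5.67 CPM. Itgb2, the CD18 integrin chain, ranged over 3.15 to 7.82 CPM. All 7 genes were above 0 in Control and 5 of 7 in VE-PTPiKO, against 48.4% and 48.9% of all genes.

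Neutrophil genes were low and mostly highest in the same library. Of the 8 tested, 8 were above 0 in Control, at a median log2 fold change of 1.13. In VE-PTPiKO 7 were above 0, at a median of 0.52. Of all genes, 48.4% and 48.9% were above 0. By limma 1 of the 8 passed in Control, against 7.48% of all genes upward, and 0 in VE-PTPiKO, against 1.92%. S100a8, which encodes a calcium-binding protein abundant in neutrophil cytosol, had 1.42, 1.13 and 3.18 CPM in sham Control kidneys, against 2.52, 7.62 and 3.58 in injured ones. Sham VE-PTPiKO kidneys had 2.44, 2.52 and 1.43 CPM and injured ones 4.62, 5.11 and 2.46. Its groups overlapped in both genotypes (log2 1.19 ± 0.45 and 0.84 ± 0.35, limma adjusted p = 0.126 and 0.298). S100a9, its partner in the calprotectin dimer, had 2.34, 1.57 and 4.16 CPM in the Control sham libraries and 3.39, 11.6 and 3.97 after IR. Values in VE-PTPiKO ran 3.10, 2.30 and 2.69 CPM for sham and 6.58, 8.12 and 2.53 for IR. Control IR 2 held the highest value of both, and S100a9 reads per S100a8 read ran from 0.915 to 1.88 over the 12 libraries.

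Clec4e, the Mincle receptor that senses dead cells and microbial glycolipids (chromosome 6, 123281789 to 123289870), was the 1 gene grouped under neutrophils to pass, in Control. Which cells its reads came from was not tested. Clec4e had 0.49, 0.39 and 0.75 CPM in sham Control kidneys, against 1.40, 1.60 and 1.60 in injured ones. For VE-PTPiKO the values were 0.70, 0.80 and 0.27 CPM in sham and 1.01, 0.49 and 0.65 after IR. The groups were apart in Control and overlapped in VE-PTPiKO, and counts were small, at 5 to 32 reads per library. The rise in Control was 2.67-fold (log2 1.41 ± 0.34, limma adjusted p = 0.0228, n = 3 per group). The call ended when Control sham replicate 1 was left out (adjusted p = 0.0557), and likewise for Control IR replicates 1, 2 and 3 (0.0604, 0.107 and 0.0752). In VE-PTPiKO the log2 fold change was 0.26 ± 0.47 (adjusted p = 0.859). Clec4d, a neighbouring lectin receptor gene, was 0.10 to 0.40 CPM in the Control sham libraries and 0.59 to 1.70 after IR, also without overlap (log2 1.79 ± 0.56, adjusted p = 0.0642).

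Csf3r, the receptor for the neutrophil growth factor G-CSF, had 0.68, 1.33 and 1.10 CPM in sham Control kidneys, against 0.99, 3.46 and 1.21 in injured ones. The VE-PTPiKO libraries gave 0.56, 1.34 and 0.82 CPM in sham and 0.89, 0.80 and 0.91 after IR. Sham and IR overlapped in both genotypes. Cxcr2, the neutrophil receptor for CXC chemokines, had 0.86, 0.59 and 0.98 CPM in the Control sham libraries and 0.41, 2.41 and 0.61 after IR. With VE-PTPiKO the sham libraries stood at 0.70, 1.23 and 0.49 CPM and the IR libraries at 1.36, 1.42 and 1.10, with overlap in both genotypes. Control IR 2 was the highest library of both by a wide gap, while Control IR 1 was the lowest of all 12 for Cxcr2. Retnlg, a resistin-like secreted protein, had 1.11, 0.69 and 1.96 CPM in sham Control kidneys, against 1.46, 3.46 and 1.71 in injured ones. Sham VE-PTPiKO kidneys had 1.74, 1.34 and 1.43 CPM and injured ones 2.08, 3.08 and 1.30, again with overlap. Ngp, a granule protein of young neutrophils, stayed at 0.10 to 1.00 CPM. Mpo, the myeloperoxidase made mainly in marrow precursors, had 0 reads in 10 of the 12 libraries and 1 read at most, and it did not enter the test.

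Control IR 2 was the highest of the 12 libraries for 8 of the 9 neutrophil genes. The summed CPM of the 9 genes was 7.34, 5.9 and 12.8 in Control sham, and 11.1, 32.9 and 13.8 after IR. For VE-PTPiKO it was 10.1, 9.96 and 7.91 in sham and 17.8, 20.1 and 9.98 after IR. Red cell and platelet transcripts moved with it. Their 10 genes summed to 102, 82.7 and 191 CPM in Control sham, and 345, 616 and 371 after IR. For VE-PTPiKO they summed to 158, 94.4 and 91.5 CPM in sham and 461, 571 and 143 after IR. The 3 libraries highest in the blood cell sum were also the 3 highest in the neutrophil sum, and VE-PTPiKO IR 3 was near sham on both. The summed CPM of 20 other neutrophil genes did not rise. Its mean was 28.8 in Control sham and 25.6 after IR, and 30.4 and 24.9 in VE-PTPiKO. VE-PTPiKO sham 2 was highest at 48.2. Most of these genes still stood above 0 after IR, 14 of 16 tested in Control and 10 of 16 in VE-PTPiKO. Of the 10 blood cell genes, 9 were tested and 6 rose in Control, where 7.48% of all genes did so. Among the 6 were the haemoglobin gene Hba-a1 at 3.94-fold and the platelet factor gene Pf4 at 6.93-fold. None passed in VE-PTPiKO, against 1.92% of all genes upward. All 9 stood above 0 there too, with Hba-a1 at 3.05-fold and Pf4 at 2.45-fold (limma adjusted p = 0.0962 and 0.108). The part of the blood cell genes in the neutrophil values was not tested. Without Control IR replicate 2, the members called in Control were 1 of 40, Cd68 (2.5%, against 5.3% of all genes in either direction). Without Control sham replicate 2 they were 5, with H2-Aa and Laptm5 added (12.5%, against 12.4% in either direction).

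**Figure D4:**
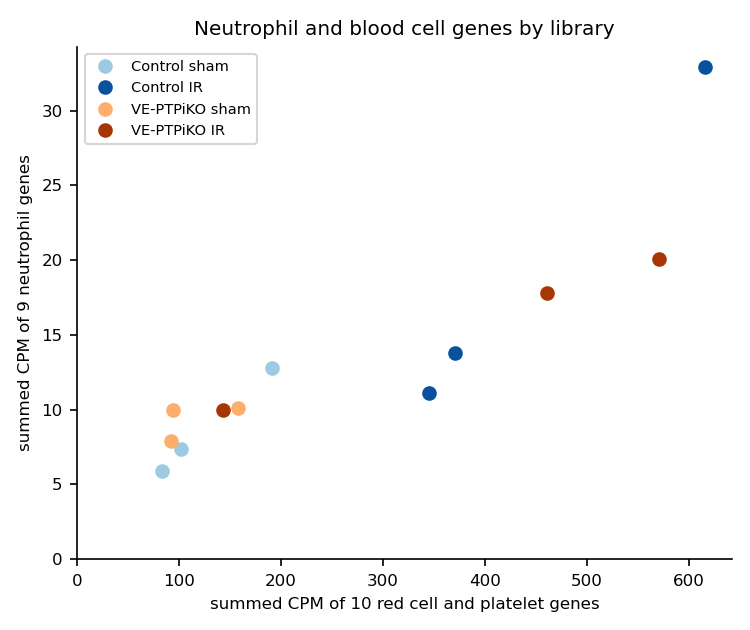
Summed CPM of the 9 neutrophil genes (vertical) against that of 10 red cell and platelet genes (horizontal), 1 point per library, coloured by group. Control IR 2 stands at 616 and 32.9, and VE-PTPiKO IR 3 lies among the sham libraries at 143 and 9.98.

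Lymphocyte genes were near the limit of detection. A count of 3 reads, the floor used here, corresponds to 0.141 to 0.194 CPM, depending on the library. Cd3e, a chain of the T cell receptor complex, had 0.19, 0.15 and 0.00 CPM in the Control sham libraries and 0.23, 0.05 and 0.11 after IR. Values in VE-PTPiKO ran 0.00, 0.16 and 0.16 CPM for sham and 0.18, 0.06 and 0.06 for IR. At 0 to 4 reads per library no difference was detectable at this depth. Cd79a, the B cell receptor chain, had 0.00, 0.05 and 0.00 CPM in sham Control kidneys, against 0.06, 0.05 and 0.22 in injured ones. For VE-PTPiKO the values were 0.05, 0.21 and 0.00 CPM in sham and 0.12, 0.06 and 0.13 after IR, again 0 to 4 reads.

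Cd8a, the coreceptor of cytotoxic T cells and of some dendritic cells, had 0.12, 0.39 and 0.29 CPM in the Control sham libraries and 0.53, 0.75 and 0.66 after IR. The VE-PTPiKO libraries gave 0.99, 0.54 and 0.33 CPM in sham and 1.19, 0.49 and 0.39 after IR. Its Control groups were apart and its VE-PTPiKO groups overlapped, at 2 to 21 reads per library (limma adjusted p = 0.137 and 0.969). Cd79b had 0.25, 0.69 and 0.58 CPM in sham Control kidneys, against 0.59, 0.60 and 0.50 in injured ones. With VE-PTPiKO the sham libraries stood at 0.52, 0.43 and 0.71 CPM and the IR libraries at 0.71, 0.49 and 0.19. Nkg7, a granule protein of NK and cytotoxic T cells, had 0.19, 0.20 and 0.35 CPM in the Control sham libraries and 0.29, 0.10 and 0.33 after IR. Sham VE-PTPiKO kidneys had 0.33, 0.05 and 0.60 CPM and injured ones 0.36, 0.31 and 0.13. Both overlapped between sham and IR, and Cd3g had 0 to 12 reads. None of the 6 lymphocyte genes passed in either genotype, where 7.48% and 1.92% of all genes passed upward. Above 0 were 5 of 6 in Control and 4 of 6 in VE-PTPiKO, against 48.4% and 48.9% of all genes. Their median log2 fold changes were 0.70 and 0.07. For Cd3g, Cd8a and Cd79a, 3 of 6 (50%, against 17.4%), all Control IR libraries lay above all Control sham libraries in CPM. In VE-PTPiKO 0 of 6 did so, against 12.7%. All of this rests on few reads.

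**Figure D5:**
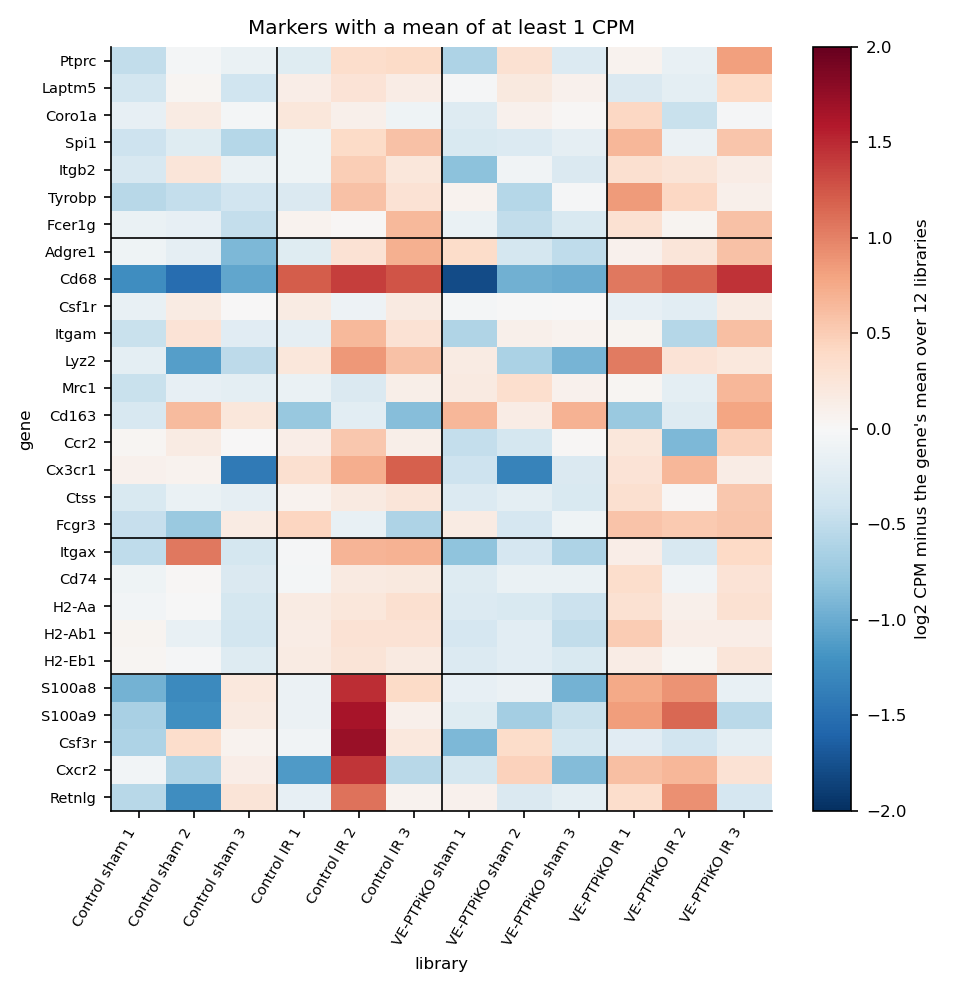
Log2 CPM minus the gene's mean over the 12 libraries for the 28 genes whose mean reached 1 CPM, by library and role. Cd68 is above its mean in all 6 IR libraries, and the neutrophil rows are darkest in Control IR 2.

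The wider leukocyte lists, which hold no member of the set, gave calls in both directions. Of all genes tested, 7.48% passed upward and 4.02% downward in Control, and 1.92% and 0.793% did so in VE-PTPiKO. Of 24 other monocyte and macrophage genes, 20 were tested in Control, where 4 rose and 2 fell. Plac8, F13a1, Msr1 and Cd14 rose by 2.31, 4.52, 2.28 and 2.16-fold (limma adjusted p = 0.000553, 0.00521, 0.00905 and 0.00881). Maf, a transcription factor of macrophages that other kidney cells also express, was 1.95-fold lower (adjusted p = 0.000317). In VE-PTPiKO, Plac8 and Cd14 rose by 2.13 and 1.95-fold (adjusted p = 0.0213 and 0.0418), and Maf was 2.11-fold lower (0.0147). Cd14 stood at 31.4 to 60.9 CPM in sham Control kidneys, against 80.0 to 97.7 in injured ones, well above the level of most members, and tubule cells can express it too.

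Of 20 other neutrophil genes, 16 were tested in Control, where Il1r2, Il1b and Cd177 rose and Hdc fell, and none passed in VE-PTPiKO. Here too the shares of all genes were 7.48% upward and 4.02% downward in Control, and 1.92% and 0.793% in VE-PTPiKO. Of 22 other pan-leukocyte and signalling genes, 21 were tested, and Cebpa, Plek, Runx1 and Cd53 rose in Control and Cebpa alone in VE-PTPiKO. Of 14 other antigen presentation and dendritic cell genes, 7 stood higher and 7 lower in each genotype, at a median log2 fold change of -0.01 in Control and 0.01 in VE-PTPiKO, and Cd83 rose and Flt3 fell in Control. None of 20 T and NK cell genes, none of the 8 tested B and plasma cell genes and neither of the 2 tested mast cell, basophil and eosinophil genes passed in Control, and none of these passed in VE-PTPiKO. In lists this small, 0 calls cannot be told from the shares of all genes. With the red cell and platelet genes and the endothelial gene Cdh5, these lists had 23 calls in Control. Leaving out each library in turn kept 12 of them. The other 11 lost their call without at least 1 library, with adjusted p up to 0.24, and 10 of them did so without Control IR replicate 2. In VE-PTPiKO all 5 calls ended without VE-PTPiKO sham replicate 3, and each kept its call without VE-PTPiKO IR replicate 3.

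No member passed a test between genotypes. The reads of all 12 libraries were normalized together for these contrasts. For the genotype by injury interaction, which asks whether the IR response differed between genotypes, 0 of 40 members passed, as did 0% of the 16339 genes tested (limma). At an unadjusted p under 0.05, 1 of 40 members, Laptm5, and 432 of 16339 genes were counted. In sham, 0 of 40 members passed for VE-PTPiKO against Control (0% of genes), with 1 of 40, Mrc1, and 267 genes at an unadjusted p under 0.05. After IR, 0 of 40 passed (0% of genes), with 3 of 40, Clec4e, Ly6c2 and Fcgr3, and 709 genes at an unadjusted p under 0.05. edgeR and DESeq2 called 0 members in each of the 3 contrasts.

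The intervals were wide for single genes. For Cd68 the difference between the 2 IR responses was -0.10 on the log2 scale, with a 95% interval of -0.84 to 0.63, and for Lyz2 it was -0.22 (-1.17 to 0.74). For Clec4e it was -1.15 (-2.37 to 0.08, unadjusted p = 0.0637, limma adjusted p = 0.999), and for Laptm5 -0.56 (-1.10 to -0.01, adjusted p = 0.999). For H2-Aa and H2-Ab1 it was 0.18 in both, with intervals of -0.14 to 0.50 and -0.22 to 0.59. A change of 2-fold in the response thus lay outside the intervals of Cd68, H2-Aa and H2-Ab1 and inside those of Lyz2, Clec4e and Laptm5.

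Between genotypes in sham, Mrc1 was 7.77, 9.45 and 9.18 CPM in Control and 11.9, 13.4 and 11.2 in VE-PTPiKO. It was the 1 member of 40 (2.5%) whose groups did not overlap there in CPM, against 4.66% of genes (log2 0.45 ± 0.19, limma adjusted p = 1). On the jointly normalized scale H2-Eb1 did not overlap either. The 3 class II chains were lower in VE-PTPiKO sham by amounts that did not pass, at log2 -0.21 for H2-Aa, -0.20 for H2-Ab1 and -0.19 for H2-Eb1. After IR, 4 of 40 members (10%) did not overlap between genotypes, against 8.51% of genes. Clec4e, Ly6c2 and Csf3r were lower in VE-PTPiKO, at a log2 difference of -1.12 ± 0.40, -1.24 ± 0.45 and -0.89 ± 0.45. Without Control IR replicate 2 the Csf3r difference was -0.35. Fcgr3 was higher, at 8.77, 8.49 and 8.75 CPM against 7.96, 5.36 and 3.86 in Control IR (0.63 ± 0.29, and 0.35 without Control IR replicate 3). The adjusted p was 1 for each of these, and at 0.19 to 0.37 CPM in VE-PTPiKO IR, Ly6c2 was near the floor of 3 reads.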

How the data were processed

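The 12 bulk RNA-seq libraries of whole kidneys were used. The 2 single-cell samples of the series were not analysed here. RNA was extracted with Trizol and prepared with a TruSeq kit, per the labels' protocols. FastQC, STAR, HTSeq and DESeq2 on mm10 are named without versions or parameters, per the submitters' processing notes; strand use in counting is not stated there. The authors deposited 1 table per genotype, normalized separately. Its library columns hold normalized signal, that is, gene counts over a size factor, as the deposited values show. The tables also hold the authors' own log2 fold change, standard error, adjusted p-value and Wald score of each gene, per the file headers. Whole reads were recovered for 100.0% of values within a tolerance of 0.02. Of 23493 lines, 182 identifiers were listed more than once, and 23286 genes were kept. No unmapped value column was present.

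CPM divides recovered reads by the library's total, and RPKM divides CPM by the merged exon length of GENCODE M21 (GRCm38, the same build as mm10). IR was tested against sham within each table by limma 3.58.1 with a trend on log2(deposited value + 1), keeping genes whose mean reached 1; adjusted p under 0.05 was the threshold. Fold changes are on that log2(value + 1) scale, which understates changes of low genes. Genotype contrasts used the recovered reads of all 12 libraries, scaled by the median of ratios over 14828 genes. The test was first tried on simulated data with changes set only in genes of higher counts. That trial does not cover the members with few reads. Alternatives were TMM, no filter or a mean of at least 10, pseudocounts of 0.1 and 5, edgeR 4.0.16, DESeq2 1.42.0, a replicate block, 1 model of all 12 libraries, leaving out each library, and leaving out the 3 libraries highest in Malat1. The members and gene lists were chosen with earlier results of these data known. By rule, values per library are given for members past the threshold, for the 3 most abundant of each role and for 12 core markers, and called genes of the other lists are named, at most 6 per list. Some genes that the rule or a neighbour check would name are not reported here. In Control, the sample codes in the titles put all IR libraries before all sham libraries; what the codes mean is not given, so handling order and surgery cannot be told apart there.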

Additional observations from a re-analysis of the deposited data

How the results depend on the processing

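Among members, Cd68 was called in all 17 settings in both genotypes. The count of 3 calls in Control became 5 with DESeq2 and 5 without the 3 libraries highest in Malat1, and ran from 1 to 5 when each library was left out. The count of 1 in VE-PTPiKO became 3 with DESeq2, 2 with the replicate block (Lyz2 added), 4 in 1 model of all 12 libraries and 3 without the libraries highest in Malat1, and ran from 1 to 5 when each library was left out. The cause was not tested. The calls over all genes, in either direction, moved too. In Control they went from 11.5% to 15.4% with DESeq2 and 12.4% without the libraries highest in Malat1. In VE-PTPiKO they went from 2.71% to 7.15% with DESeq2 and 3.68% with the replicate block. They were 6.24% there in 1 model of all 12 libraries and 5.24% without the libraries highest in Malat1. Among members, the 3 genotype contrasts stayed at 0 calls in every setting run. Of all genes tested, DESeq2 called 1 between genotypes in sham and 1 after IR. Over all genes, leaving out Control IR replicate 2 lowered the Control calls from 1870 to 862, and leaving out VE-PTPiKO IR replicate 3 raised the VE-PTPiKO calls from 445 to 1925. Without any 1 of the other libraries, the calls ran from 1264 to 2010 in Control. In VE-PTPiKO they fell in each such case, to between 126 and 412.

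No label says that the replicate numbers pair the libraries. Deviations of same-numbered libraries correlated at 0.095, -0.023 and -0.114 in Control and at 0.464, -0.297 and 0.111 in VE-PTPiKO. So few values cannot show whether the libraries are paired. The replicate block left 3 member calls in Control.

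Leaving out 1 library at a time turned the sign of 7 of 40 members in Control and 14 of 40 in VE-PTPiKO, none of them called and none over 0.434 in size on the log2 scale with all libraries. It gave a Csf1r log2 fold change of -0.03 to 0.13 in Control, a Clec4e log2 fold change of -0.14 to 0.50 in VE-PTPiKO, a Cd68 interaction of -0.38 to 0.05 and a Lyz2 interaction of -0.49 to 0.08. Without the libraries highest in Malat1 the Cd68 and Lyz2 interactions were 0.06 and 0.12. Members under 1 CPM rest on a few reads, the floor of 3 reads covers counting error only, and 3 libraries per group limit what can be called.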
